A study of Rattus norvegicus with 12 samples.

Results

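The choroid plexus is the epithelium in the brain ventricles that secretes the cerebrospinal fluid, and 8 of its genes that lie outside the molecular clock are described here in the light and the dark phase. The genes are TMEM171, MTMR7, PIK3AP1, MPP7, RIN1, NUAK2, PXYLP1 and CD82, which are 8 of the 32883 genes measured. They were picked for the difference between the phases in these same libraries, so that difference is given as a description and no test of it is reported. No numerical threshold was set in picking them. All except PXYLP1 and CD82, however, have their symbol only through the study's tables of genes that it called between the phases. Their Ensembl identifiers are, in the order above, ENSRNOG00000015449, ENSRNOG00000011420, ENSRNOG00000013309, ENSRNOG00000018760, ENSRNOG00000050223, ENSRNOG00000000034, ENSRNOG00000012480 and ENSRNOG00000000047. The tissue came from male Sprague-Dawley rats, 9 weeks old, kept on a 12:12-h light cycle. Whole choroid plexus of the lateral and the fourth ventricles was isolated after each rat, anesthetized with ketamine and xylazine, had been killed, 8 h after light on (ZT8, light phase, n = 6) or 8 h after light off (ZT20, dark phase, n = 6), the latter in darkness apart from a red lamp. With 1 rat per library and only these time points, a phase is a single hour of the day. All values are TPM, a measure of transcript abundance relative to the total of a library and corrected for transcript length, and are given as deposited unless they are called scaled.

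None of the 8 genes encodes a part of the clock itself, which is a transcriptional feedback loop in which BMAL1 and its partners activate genes that later repress them. The 8 encode proteins of several kinds. PIK3AP1 is an adaptor that couples receptors to phosphatidylinositol 3-kinase, the kinase that makes the phosphoinositides that recruit AKT. MTMR7 is a phosphatase of the myotubularin family, which removes phosphates from phosphoinositides and related inositol phosphates. RIN1 binds active RAS, promotes nucleotide exchange on RAB5 and stimulates the ABL kinases, while NUAK2 is a kinase related to the AMP-activated kinase and is switched on by STK11 (LKB1). MPP7 is a scaffold protein of cell polarity and tight junctions that binds DLG1 and LIN7. CD82 is a tetraspanin, a membrane protein that organizes other proteins in the plasma membrane, and TMEM171 is a predicted membrane protein without a well-established function. PXYLP1 removes a phosphate from the xylose that links sugar chains to proteoglycans, a phosphate that the kinase FAM20B adds.

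Of the 8 genes, 5 were higher at ZT20 (TMEM171, PIK3AP1, MPP7, MTMR7 and NUAK2) and 3 were higher at ZT8 (RIN1, PXYLP1 and CD82). Over the 12513 genes tested, those averaging 1 TPM or more, limma called 9.58% higher and 8.2% lower at ZT20 (FDR below 0.05), and since the 8 genes were chosen on this contrast nothing is read from their number. The phases were without overlap in 7 of them, with TPM as deposited or scaled, which in scaled TPM was so for 8.87% of the genes tested. NUAK2 was the gene whose phases overlapped. The size of the differences varied widely. The log2 fold change, dark against light on the log2(scaled TPM + 0.5) scale, had a median size of 0.78 in the 8 genes and of 0.12 in all genes tested. In order of size TMEM171 stood at rank 14 of all genes tested, PIK3AP1 at rank 91, MPP7 at rank 151, MTMR7 at rank 171, RIN1 at rank 284, PXYLP1 at rank 298, NUAK2 at rank 715 and CD82 at rank 4582. The description as strongly phase-dependent therefore did not hold for CD82, as 36.6% of all genes tested had a larger change. BMAL1 and the clock output gene DBP, at ranks 4 and 3, had log2 fold changes of 3.40 and -3.53.

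**Figure D1:**
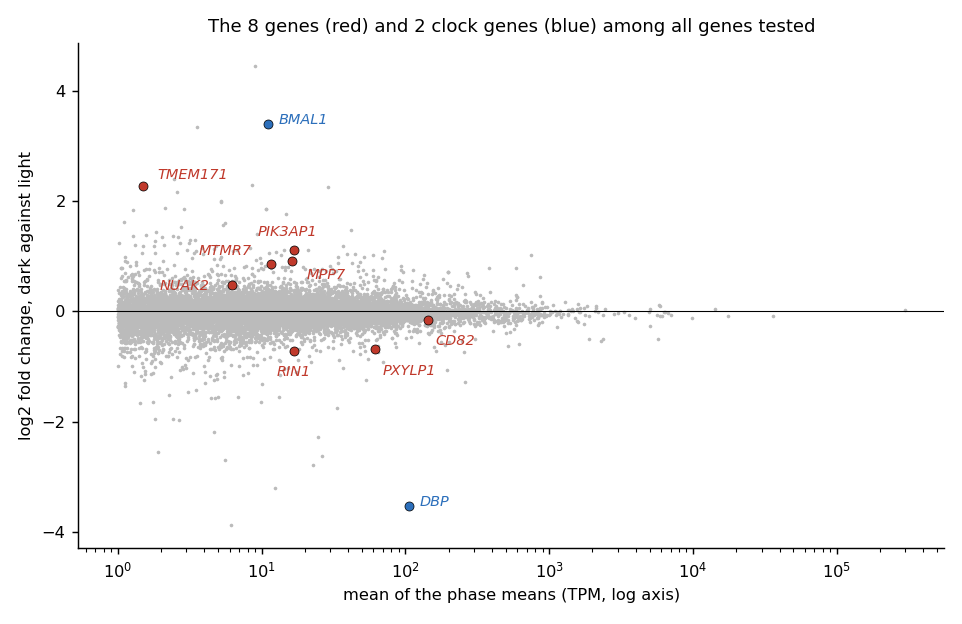
Log2 fold change, dark against light (y axis, on log2 scaled TPM + 0.5), against the mean of the phase means (x axis, TPM on a log axis) for the 12513 genes tested (gray), with the 8 genes in red and BMAL1 and DBP in blue. TMEM171 stands highest of the 8 at 2.27 and has the lowest expression, while CD82 has the highest expression and lies inside the bulk of the genes at -0.16.

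The PI3K adaptor PIK3AP1 showed the clearest separation of the phases relative to the spread between rats. Its lowest, median and highest ZT8 libraries had 9.09, 10.5 and 11.8 TPM, against 22.2, 23.0 and 24.7 TPM at ZT20. Every ZT20 library thus lay at least 10.4 TPM above every ZT8 library. The means were 10.4 ± 0.977 TPM at ZT8 and 23.3 ± 0.927 TPM at ZT20 (SD, n = 6 each), which is 2.24-fold higher at ZT20 (log2 fold change 1.11, standard error 0.05). The difference was 13.4 times the within-phase SD on the log2 scale, the largest such ratio of the 8 genes. The coefficient of variation between rats was 3.98% at ZT20 and 9.38% at ZT8.

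Promoter sequences from RefSeq (build GRCr8) could be matched to 5 of the 8 genes, TMEM171, PIK3AP1, MPP7, NUAK2 and PXYLP1. Each covers 250 bases before and 50 bases after the gene's start in that table. The windows were searched on both strands for the binding motifs of the clock and of hormone and cyclic AMP signaling. These were the E-box CACGTG, the related CACGTT, the D-box as TTATGTAA or TTACGTAA, the CRE TGACGTCA, the RRE by its usual consensus, and the glucocorticoid element GNACANNNTGTNC, of which none contains another. Of the 5 windows, 1 held a motif, an E-box in that of PIK3AP1 that begins 173 bases before the start. An E-box was present in 6.42% of all 33469 promoters of the same length, the CACGTT motif in 4.83%, the D-box in 1.01%, the CRE in 1.83%, the RRE in 0.356% and the glucocorticoid element in 0.439%. The bases before the start are shown for PIK3AP1, because of this match, and for TMEM171, the gene with the largest change, whose window held none of these letters. Capitals mark the E-box. The PIK3AP1 stretch is chr1:250154227-250154476 and the TMEM171 stretch chr2:31779267-31779516, both on the minus strand and written from the 5′ end of the gene's strand.
PIK3AP1: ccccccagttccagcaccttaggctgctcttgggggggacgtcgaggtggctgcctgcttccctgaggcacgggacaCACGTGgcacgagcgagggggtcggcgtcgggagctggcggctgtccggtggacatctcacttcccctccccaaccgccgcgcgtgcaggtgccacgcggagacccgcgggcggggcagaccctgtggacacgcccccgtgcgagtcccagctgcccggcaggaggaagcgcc
TMEM171: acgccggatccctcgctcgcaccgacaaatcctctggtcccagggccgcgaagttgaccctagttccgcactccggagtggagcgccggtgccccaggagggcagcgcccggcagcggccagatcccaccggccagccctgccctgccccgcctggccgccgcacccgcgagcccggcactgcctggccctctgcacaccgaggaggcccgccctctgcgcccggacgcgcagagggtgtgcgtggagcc
A match is a description of the letters and not of binding. The starts used for PIK3AP1 and MPP7 lie 40138 and 69013 bases inside the annotated gene, and which start the choroid plexus uses was not analysed here. The G and C content was 74.3% in TMEM171, 72% in PIK3AP1, 76.3% in PXYLP1 and 64.7% in NUAK2, but 37% in MPP7, against a median of 51.7% over all promoters of this length.

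TMEM171 had the largest ratio between the phases and the lowest expression. ZT8 libraries had between 0 and 0.34 TPM with a median of 0.19, and ZT20 libraries had between 1.85 and 3.62 TPM with a median of 2.89. It was listed at 0 in ZT8 replicate 3, and no ZT8 library came near the lowest ZT20 value. The means were 0.175 ± 0.125 TPM and 2.81 ± 0.736 TPM (SD, n = 6 each), a ratio of 16.0. Of the genes tested, 94.6% had a higher mean, and TMEM171 reached the 1 TPM needed for the fit through its ZT20 values alone, so that it had to differ to be included. The values are deposited with 2 decimals and carry no read counts, so that the number of reads behind the ZT8 values is not known. The log2 fold change of 2.27 (standard error 0.19) moved with the small constant added before taking logarithms, to 3.50 with 0.1 TPM and 1.67 with 1 TPM in place of 0.5.

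Among the regulators of phosphoinositides, MTMR7 was higher at ZT20 but varied widely between rats, with a coefficient of variation of 23.2% at ZT8 and 25.8% at ZT20. The ZT8 libraries ranged from 5.91 to 10.3 TPM with a median of 8.02, and the ZT20 libraries from 10.6 to 21.4 TPM with a median of 16.0. The phases nearly touched, with 10.31 TPM in ZT8 replicate 3 and 10.56 TPM in ZT20 replicate 1, and in FPKM as deposited these libraries overlapped. The means were 8.05 ± 1.87 TPM and 15.3 ± 3.95 TPM (SD, n = 6 each), a ratio of 1.90 (log2 fold change 0.86, standard error 0.18). ZT20 replicate 3 had more than the other ZT20 libraries at 21.38 TPM, and ZT20 replicates 1 and 6 had the least at 10.56 and 11.33 TPM.

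The polarity scaffold MPP7 was also higher in every ZT20 library. ZT8 values lay between 9.78 and 12.9 TPM with a median of 10.95, and ZT20 values between 18.4 and 23.7 TPM with a median of 22.0. The distance between the nearest libraries of the phases was 5.54 TPM. The means were 11.1 ± 1.20 TPM and 21.6 ± 1.87 TPM (SD, n = 6 each), a ratio of 1.94 (log2 fold change 0.91, standard error 0.08).

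The RAS effector RIN1 and the kinase NUAK2 moved in opposite directions. RIN1 ranged from 18.1 to 24.7 TPM at ZT8 (median 20.5) and from 11.6 to 13.6 TPM at ZT20 (median 13.0). The libraries of the light phase all lay above those of the dark phase, and they were more spread, with a coefficient of variation of 12.1% against 6.91%. Its means were 21.1 ± 2.54 TPM and 12.8 ± 0.882 TPM (SD, n = 6 each), so that RIN1 was 65.0% higher at ZT8 (log2 fold change -0.71, standard error 0.07). NUAK2 ranged from 4.28 to 6.63 TPM at ZT8 (median 4.89) and from 6.11 to 8.50 TPM at ZT20 (median 7.58). The overlap came from ZT8 replicate 2 at 6.63 TPM, above ZT20 replicate 5 at 6.11 TPM, while the next ZT8 value was 5.41 TPM in replicate 5. Its means were 5.10 ± 0.870 TPM and 7.39 ± 0.820 TPM (SD, n = 6 each), which is 44.9% higher at ZT20 (log2 fold change 0.49, standard error 0.09).

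PXYLP1, the phosphatase of the proteoglycan linker, was the most abundant of the 8 genes after CD82 and was higher at ZT8. It had between 62.9 and 83.9 TPM at ZT8 (median 75.9) and between 41.1 and 54.3 TPM at ZT20 (median 48.0), without overlap. The ZT8 library nearest to the dark phase was replicate 3 at 62.9 TPM, and the other ZT8 libraries had at least 75.28 TPM. The means were 76.2 ± 7.59 TPM and 47.6 ± 5.71 TPM (SD, n = 6 each), which is 60.1% higher at ZT8 (log2 fold change -0.69, standard error 0.09).

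The tetraspanin CD82 was the most abundant and the least changed of the 8 genes. Its ZT8 libraries lay within 148 to 154 TPM (median 151) and its ZT20 libraries within 128 to 146 TPM (median 138). The phases did not overlap, at a distance of 2.15 TPM. The means were 151 ± 2.22 TPM and 137 ± 6.70 TPM (SD, n = 6 each), which is 10.5% higher at ZT8 (log2 fold change -0.16, standard error 0.04). The coefficient of variation between rats was 1.46% at ZT8 and 4.89% at ZT20. After scaling, the libraries spread from 144.2 to 162.8 TPM at ZT8 and from 129.2 to 143.6 TPM at ZT20, which narrowed the distance between the phases.

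**Figure D2:**
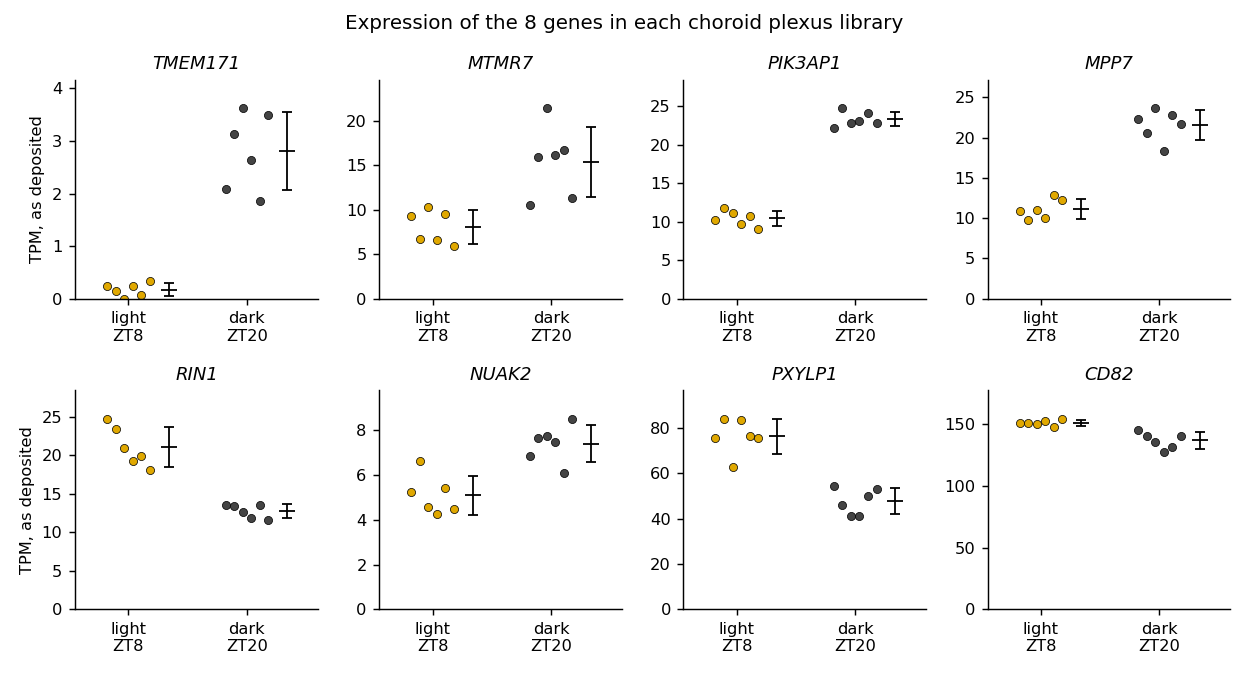
TPM as deposited (y axis, from 0, a scale of its own for each gene) in the 6 ZT8 (light, yellow) and 6 ZT20 (dark, gray) libraries, with the mean and SD beside the points and replicates 1 to 6 from left to right. The phases do not overlap except in NUAK2, where ZT8 replicate 2 at 6.63 TPM lies above ZT20 replicate 5 at 6.11 TPM. Among the other genes they come closest in absolute TPM in MTMR7, at a distance of 0.25 TPM. Relative to its level CD82 comes closer, with its lowest ZT8 library at 147.91 TPM and its highest ZT20 library at 145.76 TPM.

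In order of abundance at ZT8, CD82 came first, followed by PXYLP1, RIN1, MPP7, PIK3AP1, MTMR7, NUAK2 and TMEM171. In this order MPP7 (11.1 ± 1.20 TPM) and PIK3AP1 (10.4 ± 0.977 TPM) differed by less than their SD between rats (n = 6 each). In the dark phase PIK3AP1 (23.3 ± 0.927 TPM) came before MPP7 (21.6 ± 1.87 TPM), again by less than the larger SD (n = 6 each), and RIN1 came after MTMR7, with a difference smaller than the SD of MTMR7 of 3.95 TPM.

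Whether the 8 genes varied together between rats of the same phase was described by the correlation of their deviations from the phase means over the 12 libraries. All genes of a library share its sequencing and its scaling factor, and these correlations are given without a test. Of the 28 pairs, 12 had a positive and 15 a negative coefficient, with a median of -0.02, and 2 had a size over 0.5. PXYLP1 and MTMR7 had the coefficient farthest from 0 (Pearson r = -0.78, Spearman rho = -0.76, n = 12 libraries). The libraries with the most MTMR7 in each phase, ZT8 replicate 3 and ZT20 replicate 3, were the lowest ZT8 and the second lowest ZT20 library in PXYLP1, at 62.9 and 41.29 TPM. ZT20 replicate 1, lowest of its phase in MTMR7, was highest in PXYLP1 at 54.27 TPM. Within the phases the coefficient was -0.67 at ZT8 and -0.87 at ZT20 (n = 6 libraries each). It was -0.68 without ZT20 replicates 1 and 6, whose MTMR7 deviations lay farthest from the median, with ZT20 replicate 3 kept. The pair was picked as the most extreme of the 28 in these same libraries, so these further coefficients are no separate support. PXYLP1 and CD82, both higher at ZT8, had r = 0.51 (n = 12 libraries).

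**Figure D3:**
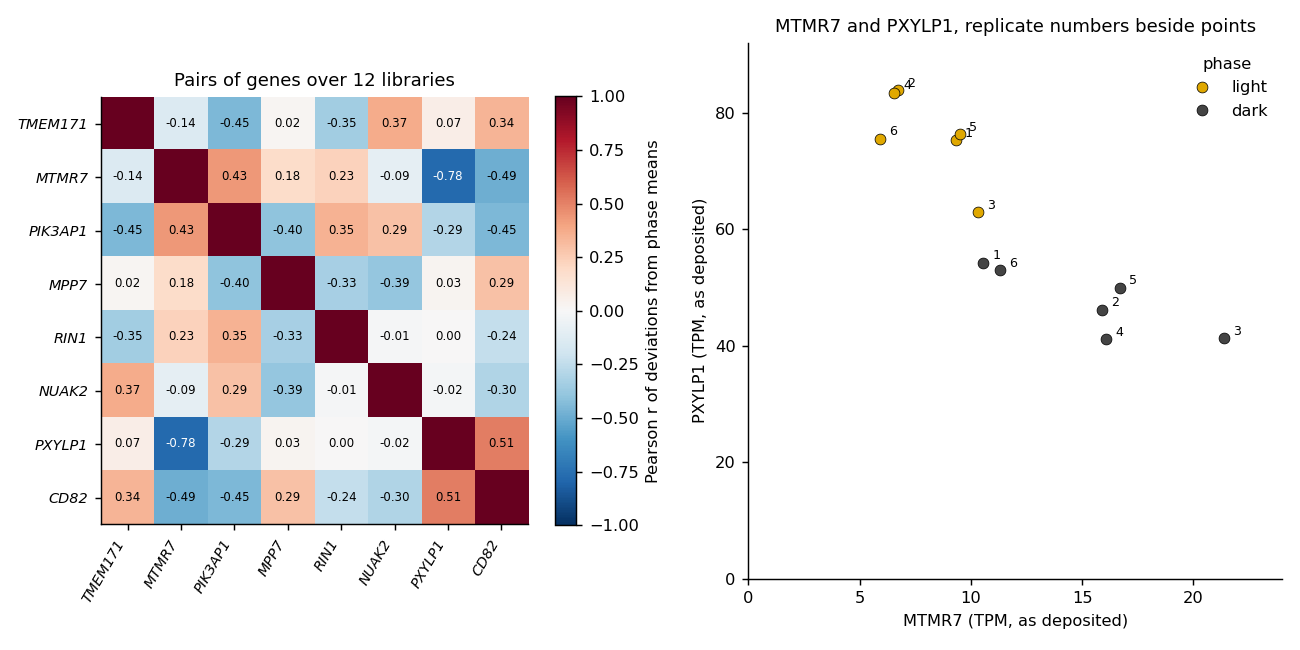
Left, Pearson r of the deviations from the phase means of log2(scaled TPM + 0.5) for each pair of the 8 genes over the 12 libraries (color scale from -1 to 1). Right, PXYLP1 against MTMR7 in TPM as deposited, a point per library with its replicate number, in which PXYLP1 tended to be lower where MTMR7 was higher at ZT8 (yellow) and at ZT20 (gray), with r = -0.67 and -0.87 for the deviations plotted on the left.

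The genes with the most similar pattern were taken as those with the highest Pearson correlation of log2 scaled TPM with each gene over the 12 libraries, among the 3607 tested genes with a symbol, many of which have one because the study called them. Because the phases differ in all 8 genes, these correlations mainly follow the phase and are a description. PIK3AP1 was most like BMAL1 (r = 0.991), followed by RERE (0.985) and DAPK1 (0.984). BMAL1 was at 1.53 TPM at ZT8 and 20.7 TPM at ZT20, so that a similar pattern went with a much larger change. MPP7 was most like C2CD5 (r = 0.980), ARMCX2 (0.970) and NPAS2 (0.965), the last being a clock activator related to CLOCK, with 4.85 TPM at ZT8 and 13.7 TPM at ZT20. RIN1 was most like TEF (r = 0.971), a transcription factor of the clock output, SLC16A12 (0.960) and DBP (0.954), all higher at ZT8. TEF had 51.9 TPM at ZT8 and 15.1 TPM at ZT20. For TMEM171 they were SYNJ2BP (r = 0.983), TMEM184B (0.979) and CDC5L (0.978), and for MTMR7 the autophagy kinase ULK1 (r = 0.955), RBM26 (0.944) and the phosphoinositide kinase PI4KB (0.936). For NUAK2 they were ESRP2 (r = 0.932), PDZRN3 (0.931) and the transcription factor CEBPB (0.918). PXYLP1 was most like HMGN2 (r = 0.972) and FLOT2 (0.970), and CD82 like the glucose transporter SLC2A1 (r = 0.943), ATRAID (0.932) and KDELR3 (0.930).

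The relatives and partners of the 8 genes were followed in 7 lists of 143 genes in all. Symbols came from the study's own tables, which name 1997 genes by their expression at ZT8 and otherwise only genes that the study called between the phases. The share of called genes is therefore given only for genes named through their expression. Of 18 such list genes, limma called 1 higher and 1 lower at ZT20 at an FDR below 0.05, where 9.16% and 14.2% of all 1997 genes named in this way were called. Their median log2 fold change was -0.03, the same as over the 1997 genes, and 6 of the 18 (33.3%) had an unadjusted p below 0.05 in limma, where 37.5% of the 1997 genes had one. The gene called lower was CAB39L, related to the scaffold CAB39 that assembles the kinase complex of STK11 (LKB1), with 455 ± 24.5 TPM at ZT8 and 360 ± 14.0 TPM at ZT20 (SD, n = 6 per phase; log2 fold change -0.35, limma FDR = 0.000504). It was called in 22 of 23 alternatives, the exception being the fit with the FPKM-to-TPM ratio of each library as a covariate (limma FDR = 0.0976). CAB39 itself had 73.3 ± 4.99 and 78.2 ± 2.83 TPM (SD, n = 6 each; limma FDR = 0.183).

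In the family of CD82, 9 of the 25 listed tetraspanins were named through their expression, and 1 of them was called, higher at ZT20. This was TSPAN33, with 117 ± 6.74 TPM at ZT8 and 133 ± 4.81 TPM at ZT20 (SD, n = 6 per phase; log2 fold change 0.16, limma FDR = 0.0497), and it remained called in 2 of the 12 fits with a library left out (FDR up to 0.101, without ZT20 replicate 1). Among the other tetraspanins, CD9 had 486 ± 18.4 and 455 ± 20.4 TPM (limma FDR = 0.124), CD81 had 1130 ± 59.9 and 1130 ± 32.2 TPM (limma FDR = 0.863), and CD63 had 1190 ± 92.8 and 1160 ± 47.8 TPM (limma FDR = 0.589; SD, n = 6 each). The tetraspanins thus included genes several times as abundant as CD82 for which no difference was called.

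The other tested genes of the lists were named through the study's tables of called genes, so their values are given without a share. The study called them in these same libraries. Their FDR and counts of fits, here and in the next paragraph, are thus a description and no separate support. Among the myotubularins, MTMR4 rose from 9.49 ± 1.20 to 14.1 ± 1.39 TPM at ZT20 (SD, n = 6 per phase; log2 fold change 0.53, limma FDR = 0.000535) and MTMR3 from 17.4 ± 0.816 to 19.8 ± 1.09 TPM (log2 fold change 0.16, limma FDR = 0.0211). Of the PI3K pathway around PIK3AP1, the lipid phosphatase INPPL1, the catalytic subunit PIK3CA and the kinase PDPK1 were called higher at ZT20, with log2 fold changes of 0.17, 0.16 and 0.17 (limma FDR = 0.0203, 0.0322 and 0.0465). PIK3CA and PDPK1 remained called in 4 and 3 of the 12 fits with a library left out (FDR up to 0.0693 and 0.102). AKT1, named through its expression, had 99.4 ± 5.68 TPM at ZT8 and 93.9 ± 3.33 TPM at ZT20 (SD, n = 6 each; limma FDR = 0.0779).

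Of the scaffolds around MPP7, the polarity kinase PRKCZ (log2 fold change 0.37, limma FDR = 0.000569) and DLG4 (0.28, limma FDR = 0.0105) were higher and the polarity protein CRB2 (-0.31, limma FDR = 0.00287) lower at ZT20. DLG1, a binding partner of MPP7, was lower by a log2 fold change of -0.13 (limma FDR = 0.0459), but was called in only 1 of the 12 fits with a library left out (FDR up to 0.0954). MPP3, a relative of MPP7, had 1.72 ± 0.867 and 1.09 ± 0.0758 TPM (SD, n = 6 each; limma FDR = 0.186). Of the RAB5 regulators listed with RIN1, GAPVD1 and RABEP1 were higher at ZT20, with log2 fold changes of 0.27 and 0.22 (limma FDR = 0.00193 and 0.00254), which is the direction opposite to that of RIN1. Among the kinases related to NUAK2, BRSK1 (log2 fold change 0.30, limma FDR = 0.00503) and SIK3 (0.18, limma FDR = 0.0284) were higher at ZT20, and SIK3 was called in 7 of the 12 fits with a library left out (FDR up to 0.0634). FAM20B, which adds the phosphate that PXYLP1 removes, rose from 15.0 ± 0.611 to 18.2 ± 0.888 TPM at ZT20 (SD, n = 6 per phase; log2 fold change 0.25, limma FDR = 0.0014), while B3GAT3, an enzyme of the same linker, had 68.5 ± 4.40 and 69.8 ± 3.25 TPM (limma FDR = 0.909). The tetraspanins TSPAN12 and TSPAN11 rose by log2 fold changes of 0.39 and 0.50 (limma FDR = 0.0132 and 0.0404), the latter called in 4 of the 12 fits with a library left out (FDR up to 0.0856). With the FPKM-to-TPM ratio of each library as a covariate, PRKCZ (limma FDR = 0.0323) remained called among these genes outside the expression table, and the others named here did not.

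In bulk tissue, fewer cells of a type and less RNA per cell cannot be told apart. The epithelial markers TTR, KL, FOLR1, CLIC6, OTX2, KCNJ13, HTR2C, SLC4A5 and AQP1 were all measured, and their summed scaled TPM without TTR lay between 5815 and 6778 at ZT8 and between 6139 and 6667 at ZT20 (two-sided exact permutation test over the libraries, p = 0.829, adjusted p = 0.922 over 8 sums). The labelled tissue thus carried its defining markers in all libraries, but the sum does not speak for each marker. AQP1 was lower at ZT20, with 604.4 TPM at ZT8 and 471.5 TPM at ZT20 (limma FDR = 0.00289). CLIC6 was higher, with 1205 and 1373 TPM (limma FDR = 0.0158). PIK3AP1 and CD82 are also known from blood cells, but of the 8 macrophage and 7 lymphocyte markers on the lists none was paired with an identifier, and these were not analysed here. The sum of CD74, RT1-DA and LYZ2, genes of antigen-presenting and myeloid cells that were chosen after this was seen, ranged from 709 to 1021 at ZT8 and from 716 to 958 at ZT20 (exact permutation p = 0.9, adjusted p = 0.922), with a change of 0.922% between the means. For other cell types only part of each list was measured. The stromal markers DCN and PDGFRA (2 of 7) changed by -1.22% (exact permutation p = 0.922). The vessel wall markers TAGLN and RGS5 (2 of 6) changed by -16.0% (exact permutation p = 0.498). PLVAP of the endothelium (1 of 7) changed by -13.2% (exact permutation p = 0.429). RSPH1 of the ependyma (1 of 5) changed by -1.67% (exact permutation p = 0.742). HBB of the red blood cells (1 of 4) changed by -35.1% (exact permutation p = 0.201). Each had an adjusted p of 0.922, and so few markers do not stand for a cell type. The 6 oligodendrocyte, 6 astrocyte and 7 neuron markers were not analysed here, and the part of any cell type in the 8 genes was not tested.

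The libraries of the phases also differed in their FPKM-to-TPM ratio, summed over all genes. This ratio falls as the mean length of the transcripts sequenced rises. It lay between 0.953 and 0.987 at ZT8 and between 0.934 and 0.960 at ZT20. With this ratio as a covariate the 8 genes kept their direction. The log2 fold change of NUAK2 was then 0.34 (standard error 0.14), that of MTMR7 1.06 (standard error 0.28) and that of RIN1 -0.80 (standard error 0.10). That of PIK3AP1 was 1.12 (standard error 0.08), that of TMEM171 2.29 (standard error 0.31) and that of MPP7 0.97 (standard error 0.13). PXYLP1 had -0.71 (standard error 0.14) and CD82 -0.13 (standard error 0.06).

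**Figure D4:**
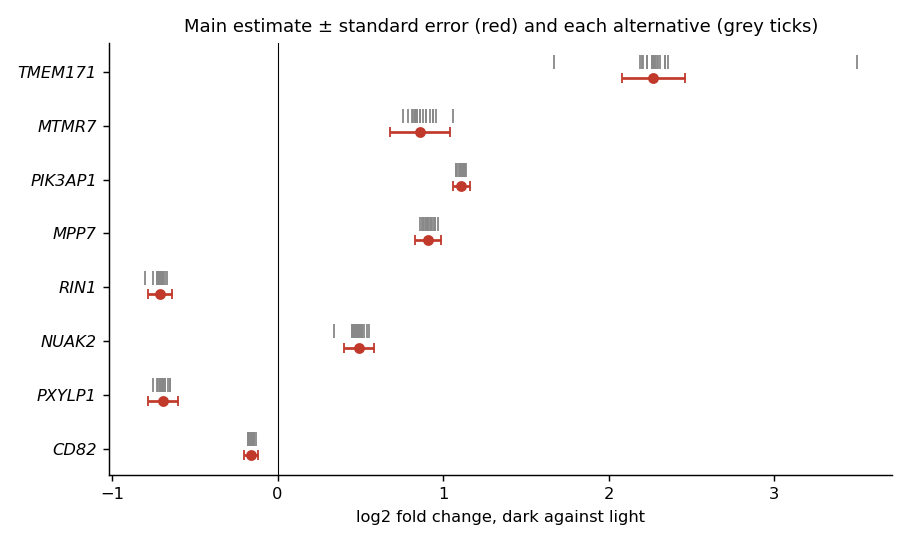
Log2 fold change, dark against light (x axis), of the 8 genes with its standard error (red) and under each alternative of scaling, added value, filter, unit, weights, block, covariate and left-out library (gray ticks). No estimate crosses 0, which is a description, as the genes were picked for this difference. Only TMEM171 spreads widely, from 1.67 to 3.50 with the constant added.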

How the data were processed

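RNA-seq of choroid plexus from 12 rats was used, with 1 library per rat. Per the labels and the methods, the authors aligned 150-base paired-end reads to Rnor_6.0 with STAR 2.7.9a and quantified genes with RSEM 1.3.3. The TPM and FPKM values were deposited by the authors without read counts, and the DESeq2 results of the authors were not used. Depth in reads was not recovered from the steps of low FPKM values, so no counting error is given. TPM was divided by a scaling factor per library (trimmed mean of ratios, 30% of ratios and 5% of levels trimmed at each end), and log2(TPM + 0.5) of 12513 genes (average TPM 1 or more) was fitted with limma 3.58.1 in R 4.3.3 on phase alone, with a trend and Benjamini-Hochberg adjustment. TPM are no counts, so limma took the place of a count test. On simulated data 88% of 200 changed genes were recovered, with 8 unchanged genes called. The simulated log2 fold changes were 0.5 or more and the genes varied independently. Smaller changes and differences shared by the genes of a library were thus not tried.

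Symbols came from the study's tables, with 3700 identifiers paired, of which 10 symbols held by several identifiers were not used. The members and lists were chosen with earlier results of these data known. Named are the 8 genes, the 3 genes most like each, the called list genes with the 4 smallest p in each list, the closest paralogs, and BMAL1 and DBP. Some genes that this rule names are not reported here. Other genes were named after their values were seen (CAB39, AKT1, CD63 and B3GAT3). Sums of markers were compared with exact permutation tests. No 2 libraries were identical (0 pairs, correlations 0.958 to 0.983). P-values set the difference between the phases against the variation between libraries, with 1 library per rat.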

Additional observations from a re-analysis of the deposited data

Results flagged for a closer look

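In the 8 genes, 16 groups of 6 libraries (each gene in each phase) were examined for a value that stands apart from the others, by its gap to the nearest value divided by the range of the group. None exceeded Dixon's 95% critical value for 6 samples, which by chance about 1 in 20 groups exceed, or 0.8 of 16. The ratio came closest to it in PXYLP1 at ZT8 (0.591, replicate 3 at 62.9 TPM) and in NUAK2 at ZT8 (0.519, replicate 2 at 6.63 TPM).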

How the results depend on the processing

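The log2 fold changes of the 8 genes were recomputed 182 times under other scalings, added values, filters, FPKM, array weights, robust variances, a replicate block, a covariate and without each library. None changed sign, and 180 moved by less than the SD between libraries. The exceptions were both in TMEM171, at 3.50 with 0.1 TPM and 1.67 with 1 TPM added. The filters, the robust variances and the replicate block cannot move a log2 fold change here, and FPKM after scaling hardly can. Leaving out 1 library cannot change the sign in the 7 genes whose phases did not overlap. The 180 thus include fits that had little or no room to differ. As the genes were picked for this difference, the kept signs are a description and no separate support. With a mean of at least 10 TPM required, TMEM171 and NUAK2 were not fitted. Without each library in turn, TMEM171 ranged from 2.19 to 2.36, MTMR7 from 0.76 to 0.96, PIK3AP1 from 1.08 to 1.13, MPP7 from 0.86 to 0.95, RIN1 from -0.75 to -0.67, NUAK2 from 0.45 to 0.55, PXYLP1 from -0.75 to -0.65 and CD82 from -0.18 to -0.14.

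Over all genes, 1199 were called higher and 1026 lower in the dark phase, and 938 to 1197 and 777 to 1076 without each library in turn. With the FPKM-to-TPM ratio of a library as a covariate 225 and 122 were called, the cause of which was not tested. Of the 44 list genes tested, 16 were called higher and 3 lower (11 to 15 and 2 to 4 without each library), against 9.58% and 8.2% of all genes tested, but only 18 of the 44 were named through their expression and the others through tables of called genes, so nothing is read from these counts. With the covariate 2 and 0 were called, array weights gave 5 lower, and counting genes named through their expression alone, an alternative added after seeing the data, leaves 1 and 1 of 18, since fewer genes are counted. The replicate numbers did not pair the libraries, as the deviations of same-numbered libraries correlated between -0.107 and 0.047 and 0 of 12 libraries correlated best with their own number. With the replicate block 857 and 735 genes were called over all genes, and 12 and 2 of the list genes. The number of reads behind the light values of TMEM171, which were at most 0.34 TPM, is not known.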
